A study of Mus musculus with 96 samples.

Results

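Liver and skeletal muscle of the same mouse can answer a feeding schedule in different ways, and the genes described here are those whose answer differed in male mice, above all those that moved in opposite directions. They were chosen by a test of the tissue by diet interaction. For each gene the log2 fold change from free feeding (AL, ad libitum) to intermittent fasting (IF) in muscle was set against that in liver, with the mouse as a block, because each animal gave 1 liver and 1 muscle library. The result is called the log2 difference below: it is positive where the liver change lay above the muscle change. It comes from a joint fit of both tissues, so it can depart from the plain difference of the single-tissue values, which come from fits of their own. Of 56748 genes in the count table, 13337 had enough counts in both tissues to be tested. The difference passed an adjusted p of 0.05 in 5639 of them, which is 42.3% of the genes tested. In 734 of these the change also passed in each tissue taken alone, with opposite signs.

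The study put C57BL/6 mice on their diets from 6 weeks of age, with food withheld for 16 hours of every day in the IF group, and took tissue after 4 months. The methods place the sampling of IF males at the close of the daily fast, while the hours of killing given began before that close and ran past it. Both groups had the same standard chow, and no engineered allele is described. The comparison uses 32 of the 96 RNA libraries: liver and muscle of 8 AL males (mice 1 to 8) and of 8 IF males (mice 9 to 16). Liver and muscle of 8 AL and 8 IF females (mice 25 to 40), whose schedule is known from the diet label alone, served as animals that the choice of genes did not use. The libraries held 26097314 to 44763638 counts in AL liver, 31458822 to 40826057 in IF liver, 29181553 to 46889676 in AL muscle and 28319147 to 45019446 in IF muscle.

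In a fast, liver makes glucose and ketone bodies for other organs and lowers the synthesis of fat and cholesterol, while skeletal muscle spares glucose and burns fatty acids. Insulin, glucagon, glucocorticoids and the sympathetic nerves carry the signals, and the tissues differ in their receptors for them. Both tissues also keep a circadian clock, and the hours of feeding are a strong time cue for the clock in liver.

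The tissue labels were checked against 10 hepatocyte and 10 muscle fibre markers. The hepatocyte markers summed to a median of 84849 CPM (counts scaled to the library size, normalised within a tissue and sex) in AL liver and 71778 in IF liver, against 0.545 and 1.42 in AL and IF muscle. Alb, which encodes serum albumin, was the most abundant of them in all 4 groups. The muscle fibre markers, led by the actin gene Acta1 in muscle, summed to a median of 190386 CPM in AL muscle and 177259 in IF muscle, against 2.01 and 2.66 in AL and IF liver. Neither tissue thus carried more than a trace of the other. The 10 most abundant genes took a median of 28.7% of the counts in AL liver, with a range of 24.1 to 32.4%, and 21.4% in IF liver, with a range of 18.4 to 23.4%.

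The response was larger in liver. Among the 13337 genes tested in both tissues, 6226 differed between IF and AL in liver (46.7%) and 3121 in muscle (23.4%), and the median absolute log2 fold change was 0.43 in liver and 0.18 in muscle. The liver change lay above the muscle change in 2890 genes (21.7%) and below it in 2749 (20.6%). Across the 13337 genes the liver and muscle changes had a Pearson r of 0.02, given as a description, since genes are not independent replicates. In bulk tissue, fewer cells of a type and less RNA per cell cannot be told apart, and this holds for each result that follows.

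The 5639 genes fell into 5 classes by the tests in single tissues. The largest class, 3537 genes, differed by diet in liver and not in muscle, and 668 differed in muscle and not in liver. Both tissues moved in the same direction by different amounts in 296 genes, and 404 passed the test of the difference but neither single test. The remaining 734 moved in opposite directions: 418 rose in IF liver and fell in IF muscle (3.13% of the genes tested), and 316 fell in liver and rose in muscle (2.37%). With a mean of at least 5 CPM in both tissues, 338 and 229 remained. At the edge of the threshold stood Csf1r, a macrophage growth factor receptor, inside with a log2 difference of 0.61 and an adjusted p of 0.049982, and Fam234b, outside with 0.42 and 0.050062.

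**Figure D1:**
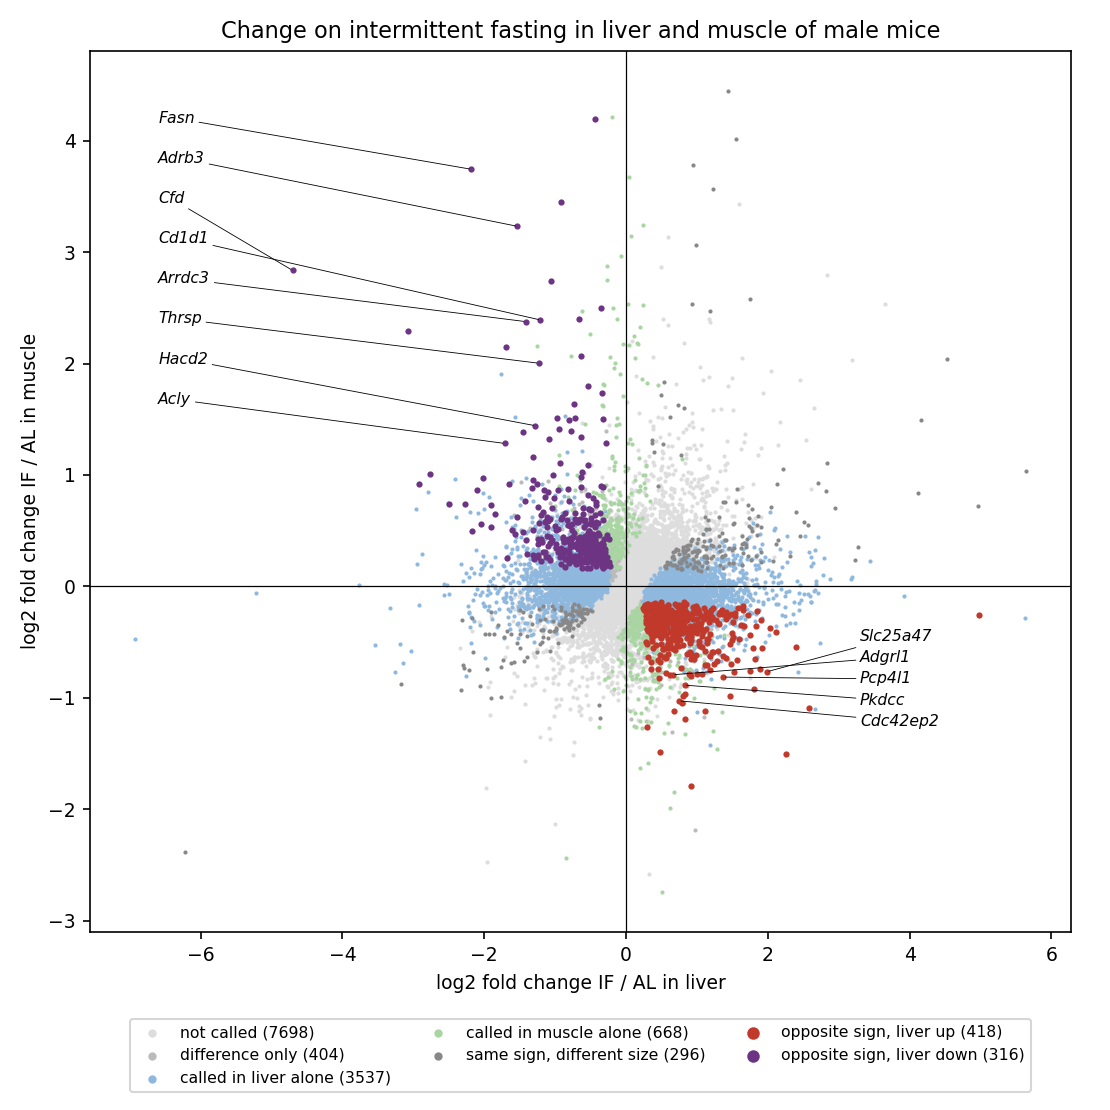
Log2 fold change (IF / AL) in liver on the x axis and in muscle on the y axis for each of the 13337 genes tested, with colours for the classes and names for genes picked from the opposite-sign classes. The 418 genes that rose in liver and fell in muscle lie at the lower right, and the 316 that fell in liver and rose in muscle at the upper left.

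Most opposite changes were small on at least 1 side. In the 418 genes that rose in liver the median absolute log2 fold change was 0.68 in liver and 0.32 in muscle, and in the 316 that fell in liver it was 0.65 and 0.40. A 2-fold change or more in each tissue, in opposite directions, was seen in 18 genes, 3 of which rose in liver and 15 of which fell in liver. All libraries of AL and IF mice were apart in both tissues at once in 19 genes of each direction. For comparison, AL and IF libraries were apart in liver for 2069 of the genes tested (15.5%) and in muscle for 557 (4.18%). These shares are for 1 tissue at a time, and the share apart in both at once over all genes tested is not given.

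Length and type of gene are measures that the rule did not use, and none of the differences in this paragraph was tested. The transcripts of the opposite-sign classes had a median length of 3836 bases in the genes that rose in liver and 5773 bases in the genes that fell in liver, against 4279 over all genes tested. The median span on the chromosome was 17346 and 31352 bases in the same order, and 21305 over all genes tested. Protein-coding genes made up 98.6% and 93% of these classes, and 89.1% of the genes tested.

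Among the genes that rose in IF liver and fell in IF muscle, 8 stood out by the smaller of their changes, among them Pkdcc, Pcp4l1, Slc25a47, Cdc42ep2 and Adgrl1. The last encodes an adhesion receptor of the latrophilin family, and Slc25a47 a carrier of the inner mitochondrial membrane. Their log2 differences ran from 1.38 to 2.85. Errors are approximate standard errors of fits with 8 mice in each group. They were derived from the test, as the absolute log2 value divided by the square root of its F statistic. Adjusted p values are from edgeR's quasi-likelihood test with Benjamini-Hochberg adjustment over all genes tested.

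Pkdcc (chromosome 17, 83522721 to 83532499 in mm39) encodes a kinase that is secreted and phosphorylates proteins outside the cell. AL liver held 21.2 to 35.7 CPM with a median of 25.4, and IF liver 40.1 to 55.2 with a median of 49.4. AL muscle held far more, 179 to 229.6 with a median of 222, and IF muscle 102 to 125 with a median of 116. Every IF library was above every AL library in liver and below every AL library in muscle. The fold changes were 0.83 ± 0.11 (adjusted p = 1.29e-06) and -0.89 ± 0.06 (adjusted p = 4.99e-09) on the log2 scale, and their difference was 1.70 ± 0.12 (adjusted p = 1.01e-09).

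Slc25a47 (chromosome 12, 108801972 to 108822741) is best known as a carrier of liver mitochondria. Its liver libraries lay between 98.6 and 555 CPM in AL mice, with a median of 232, and between 668 and 1536 in IF mice, with a median of 1013. The much lower muscle level went from between 5.99 and 10.1 CPM, with a median of 7.55, to between 3.41 and 5.82, with a median of 4.65. Again the diet groups were apart in both tissues. Liver changed by 1.99 ± 0.27 (adjusted p = 9.66e-06), muscle by -0.77 ± 0.12 (adjusted p = 0.000134), and the log2 difference was 2.85 ± 0.28 (adjusted p = 3.09e-07). Its locus overlaps 1 other annotated gene, and the strand setting of the counting is not stated, so the split of reads between them is uncertain. This holds for 12 of the 30 named genes.

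Cdc42ep2, Adgrl1 and Pcp4l1 were apart in at most 1 tissue. Cdc42ep2, an effector of the small GTPase CDC42, fell in muscle from 25.8 to 45 CPM in AL libraries (median 33.1) to 15.1 to 19.2 in IF libraries (median 16.3), while its liver ranges, 3.1 to 5.06 and 3.08 to 11.2, overlapped. Adgrl1 fell in muscle from 35.8 to 44.8 CPM (median 39.1) to 15.8 to 28.1 (median 23.6), again apart, with overlapping liver ranges of 13.9 to 26 and 18.7 to 54.5. Pcp4l1, a relative of the calmodulin-binding protein PCP4, had medians of 5.53 and 15.4 CPM in AL and IF liver and 42.7 and 27.4 in AL and IF muscle, with overlap in both. The log2 differences were 1.66 ± 0.23 for Cdc42ep2 (adjusted p = 6.74e-06), 1.38 ± 0.21 for Adgrl1 (3.08e-05) and 2.17 ± 0.25 for Pcp4l1 (1.45e-06). Adgrl1 was no longer called in liver without IF mouse 9 (adjusted p = 0.0568) or without IF mouse 13 (adjusted p = 0.0562).

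**Figure D2:**
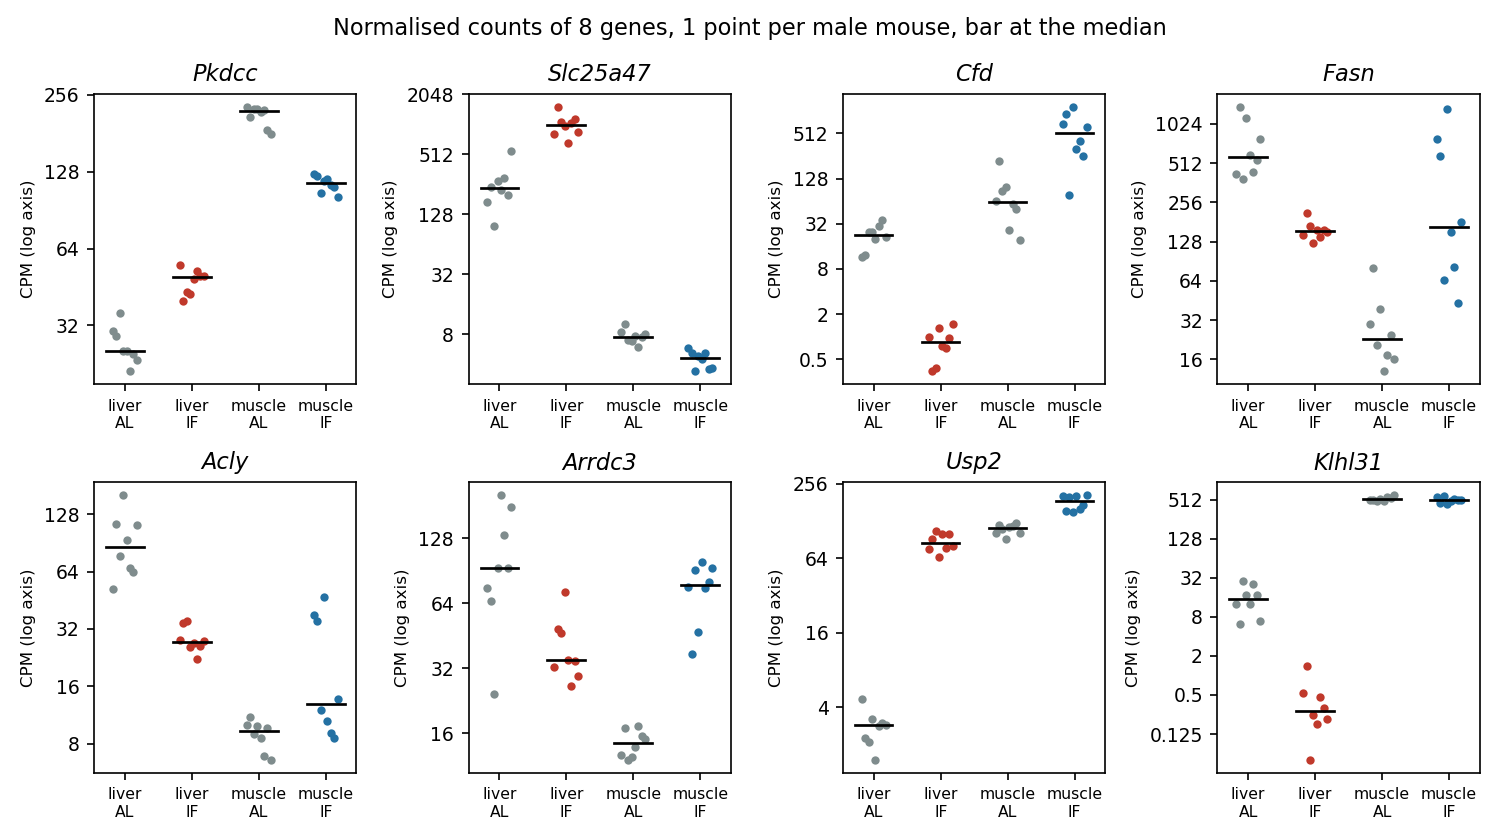
CPM on a log2 axis of 8 genes in each male library, 1 point per mouse with a bar at the median, for AL and IF liver and AL and IF muscle. Pkdcc and Slc25a47 rise in liver and fall in muscle without overlap, Cfd, Fasn, Acly and Arrdc3 fall in liver and rise in muscle, Usp2 rises in both, and Klhl31 falls in liver alone.

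The opposite pattern was lower in IF liver and higher in IF muscle. The 8 genes with the largest smaller change were Cfd, Fasn, Adrb3, Arrdc3, Acly, Hacd2, Thrsp and Cd1d1, with log2 differences from -2.55 to -7.68. Acly makes acetyl-CoA from citrate, Fasn builds palmitate from it, Hacd2 serves the elongation of longer chains, and Thrsp encodes a nuclear protein known for promoting these genes. Cfd encodes adipsin, a serine protease of the complement system made in fat tissue, and Adrb3 the adrenergic receptor typical of adipocytes.

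Fasn (chromosome 11, 120696672 to 120715373) ran from 384 to 1389 CPM in AL liver, with a median of 568, and from 125 to 211 in IF liver, with a median of 155. In muscle it ran from 13 to 80.3 CPM with a median of 22.7 in AL mice, and from 43.1 to 1332 with a median of 166 in IF mice. The liver groups were apart and the muscle groups overlapped, and the highest IF muscle library lay within the AL liver range. Liver changed by -2.18 ± 0.25 (adjusted p = 7.78e-07), muscle by 3.74 ± 0.77 (adjusted p = 0.00312), and the log2 difference was -5.05 ± 0.72 (adjusted p = 5.48e-05).

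Acly followed Fasn with smaller changes. AL liver held 51.6 to 161 CPM (median 85.7) and IF liver 22.3 to 35.3 (median 27.4), while AL muscle held 6.6 to 11 (median 9.35) and IF muscle 8.58 to 46.9 (median 12.9). The groups were apart in liver and overlapped in muscle. Its log2 difference was -2.64 ± 0.39 (adjusted p = 5.84e-05), from -1.71 ± 0.18 in liver and 1.28 ± 0.38 in muscle (adjusted p = 0.0248). The muscle call of Acly was lost with limma (adjusted p = 0.0676), with the replicate block on the label number (0.0552) and with 7 mice a group (0.0575). The setting with 7 mice a group, here and below, left out AL mouse 2 and IF mouse 10. Hacd2 went from a median of 64.6 to 26.3 CPM in liver and from 2.72 to 6.31 in muscle, and Thrsp from 256 to 98.6 in liver and from 21.9 to 55.2 in muscle. Their log2 differences were -2.55 ± 0.42 (adjusted p = 0.000143) and -2.91 ± 0.54 (adjusted p = 0.000509).

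Cfd had the largest difference of all 13337 genes, in the downward direction. Its AL liver libraries held 11.6 to 35.6 CPM with a median of 22.9, and its IF liver libraries 0.347 to 1.48 with a median of 0.852. Muscle ran from 19.5 to 219.6 CPM with a median of 61.7 in AL mice and from 77.1 to 1163 with a median of 519.6 in IF mice. The liver groups were apart and the muscle groups overlapped. The changes were -4.70 ± 0.30 in liver (adjusted p = 2.38e-10) and 2.84 ± 0.58 in muscle (adjusted p = 0.00309), giving -7.68 ± 0.66 (adjusted p = 3.55e-07). Adrb3 went from a median of 56.2 to 17.1 CPM in liver and from 0.888 to 7.23 in muscle, with overlap in both tissues and a log2 difference of -4.82 ± 0.87 (adjusted p = 0.000459). Its locus overlaps another annotated gene.

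Arrdc3 and Cd1d1 are of other kinds. Arrdc3 encodes an alpha-arrestin, an adaptor that removes receptors from the cell surface, and is known as a gene that insulin represses through FoxO factors. It had 24.2 to 203 CPM in AL liver (median 93) and 26.6 to 72.2 in IF liver (median 34.8), which overlap, and 12.1 to 17.3 in AL muscle (median 14.4) against 37.4 to 99.9 in IF muscle (median 78), which do not. The changes were -1.41 ± 0.36 (adjusted p = 0.00442) and 2.38 ± 0.18 (adjusted p = 4.77e-07), with a log2 difference of -3.62 ± 0.45 (adjusted p = 1.12e-05). With the replicate block on the label number the liver change of Arrdc3 had an adjusted p of 0.0544. Cd1d1, which presents lipid antigens to natural killer T cells, fell in liver from a median of 353 to 149 CPM without overlap. In muscle its ranges of 0.447 to 4.24 and 1.85 to 21.2 CPM overlapped, and its log2 difference was -3.70 ± 0.59 (adjusted p = 0.000125).

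Adipocyte markers moved with this set in muscle. Of 7 markers, 6 rose in IF muscle and none fell: Adipoq by 2.25 ± 0.63 on the log2 scale (adjusted p = 0.0192), Cfd, Plin1, Cidec, Retn and Fabp4, the last the most abundant. Lep had a change of -1.25 ± 0.72 (adjusted p = 0.238). The share called in muscle over all genes tested in both tissues was 23.4%. All 7 were counted well enough to be tested in muscle and 3 in liver. Cfd also belongs to the genes named above, and Fabp4 to the list of PPAR-alpha targets and fatty acid oxidation. Summed over the 7 markers, AL muscle held 166 to 772 CPM with a median of 341, and IF muscle 421 to 3581 with a median of 1507, and the groups overlapped. In liver the sum had medians of 38.9 CPM in AL mice, led by Cfd, and 21.6 in IF mice, led by Fabp4, where Lep was at 0. Cfd fell in liver, while Cidec had 0.24 ± 0.27 (adjusted p = 0.48) and Fabp4 0.44 ± 0.21 (adjusted p = 0.0841) there. In female muscle 0 of the 7 changed by edgeR, and the sum had medians of 425.5 CPM in AL mice and 390.3 in IF mice.

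A covariate for these markers, chosen after seeing the data, was put on the muscle libraries. With it the difference passed in 4172 genes and 807 genes had opposite signs, 550 of them among the 734. Fasn, Adrb3, Acly, Hacd2 and Thrsp were then no longer called in muscle, with values of 1.65, 1.40, 0.43, 0.30 and 0.86 there (adjusted p = 0.0798, 0.129, 0.521, 0.467 and 0.182), against 3.74, 3.23, 1.28 and 1.44 without it for the first 4 of them. Cfd, Arrdc3 and Cd1d1 kept opposite signs. Arrdc3 in muscle had a log2 fold change of 2.56 with the covariate. Of the 8 genes that rose in liver, Pcp4l1 was no longer called in muscle (adjusted p = 0.0894) and the other 7 kept opposite signs. The score rests in part on Cfd itself, so its value for Cfd is no separate measurement. Where the covariate is put on both tissues below, its liver score rests in part on Cfd, which was apart by diet in liver. A call lost with it can thus come from a larger error without a smaller difference.

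**Figure D3:**
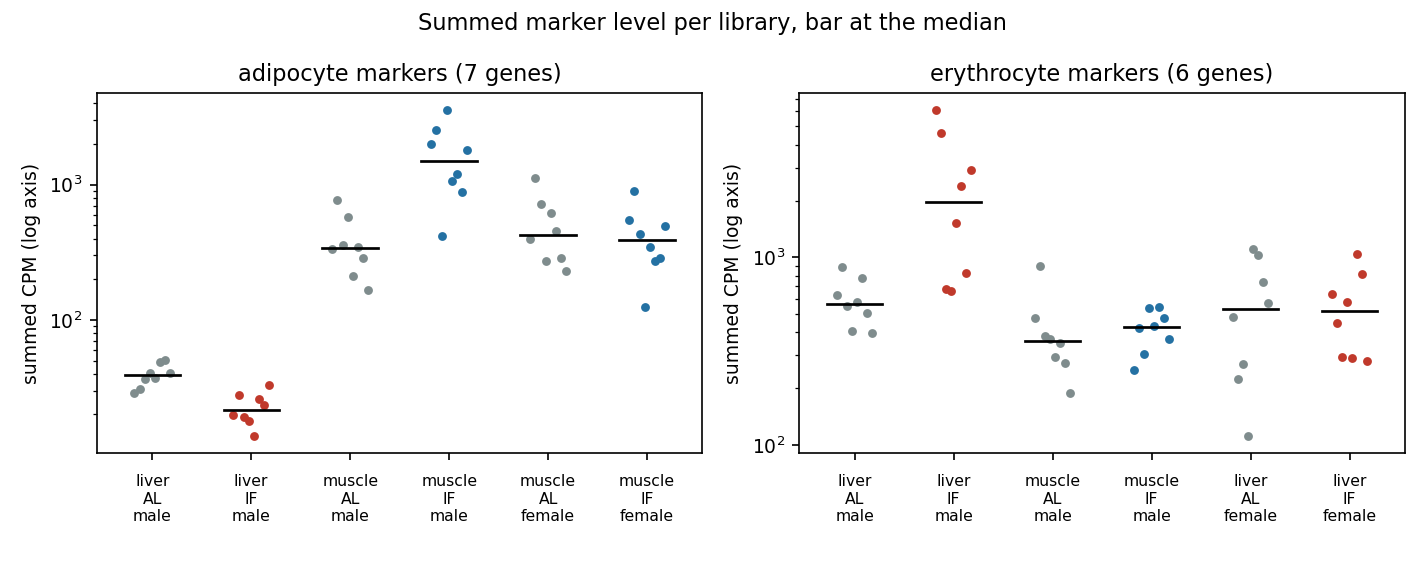
Summed CPM of the 7 adipocyte markers and of the 6 erythrocyte markers in each library on a log axis, 1 point per mouse with a bar at the median. Adipocyte markers are higher in IF than in AL muscle of males, with medians of 1507 and 341, and erythrocyte markers are higher in IF than in AL liver of males, with medians of 1967 and 564.

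Erythrocyte markers summed to 393 to 887 CPM in AL liver with a median of 564, and to 666 to 6124 in IF liver with a median of 1967, led by Hba-a1 in both groups. Of 6 markers, 4 rose in IF liver, among them Hbb-bs by 3.17 ± 0.52 (adjusted p = 0.000167). In muscle 0 of the 5 tested changed, and the medians of the sums were 358 and 428 CPM. The haemoglobin genes are near-identical pairs, so the split within a pair is uncertain. Of 6 endothelial markers 4 rose in IF liver, of 5 fibroblast markers 4, and of 4 cholangiocyte markers 3 rose and 1 fell. Over the 13337 genes tested in both tissues 46.7% were called in liver, 3452 rising and 2774 falling. The part of the endothelial, fibroblast and cholangiocyte markers in the differences was not tested.

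With an erythrocyte covariate in each tissue the difference passed in 3314 genes, and 457 had opposite signs. Of the 30 named genes 27 kept their difference, and it was lost for Pck1, Tnnc1 and Slc25a1 (adjusted p = 0.0652, 0.221 and 0.096). Cdc42ep2, Adgrl1, Adrb3, Arrdc3 and Thrsp kept the difference but were no longer called in liver, with adjusted p of 0.54, 0.138, 0.0536, 0.186 and 0.0649 there, so they left the opposite-sign class. Their liver values with it were 0.23, 0.66, -1.22, -0.90 and -1.35, against 0.75, 0.66, -1.53, -1.41 and -1.23 without it.

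Macrophage markers rose in 2 of 7 cases in IF liver, and 1 of 6 fell in IF muscle. Of the 7 lymphocyte and plasma cell markers 0 changed in liver and 1 fell in muscle, and of 2 neutrophil markers tested 0 changed in either tissue. Of 4 hepatic stellate markers 1 fell in liver, and of 3 tested in muscle 1 fell. Among the Schwann cell markers 1 of 4 rose and 1 fell in liver, and 0 of 5 changed in muscle. These counts are from edgeR's quasi-likelihood test, and over all genes tested in both tissues the shares called were 46.7% in liver and 23.4% in muscle.

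The list of 19 fatty acid synthesis genes had a median log2 fold change of -0.44 in liver and 0.51 in muscle, against 0.08 and 0.01 over all genes tested. For this and the lists below, the shares called over all genes tested were 46.7% in liver, 23.4% in muscle and 42.3% for the difference. The difference passed in 15 of the 19 (78.9%), with the liver change below the muscle change in 13. Of them 7 fell in liver and rose in muscle: Acly, Elovl5, Elovl6, Fasn, Gpam, Scd1 and Thrsp. Scd1, the desaturase that makes oleate, ran from 1638 to 5933 CPM in AL liver (median 2797) and from 1020 to 2375 in IF liver (median 1565). In muscle it ran from 32 to 212 CPM (median 70.8) in AL mice and from 229 to 2910 (median 739.5) in IF mice. These muscle groups were apart and the liver groups overlapped. The log2 difference of Scd1 was -4.18 ± 0.55 (adjusted p = 2.07e-05).

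A pair of desaturases went the other way. Fads2, which desaturates essential fatty acids, rose in liver from 120.4 to 229 CPM (median 158) to 255 to 490.2 (median 358), without overlap. In muscle it fell from 2.28 to 4.25 CPM (median 3.5) to 1.32 to 3.21 (median 2.14), and its log2 difference was 1.78 ± 0.23 (adjusted p = 3.67e-06). Scd2 rose in liver by 0.72 ± 0.22 and fell by 0.53 in muscle on the log2 scale. Srebf1, the regulator that activates many genes of the list, fell in liver by 1.05 and had -0.27 ± 0.11 in muscle (adjusted p = 0.0983), with a log2 difference of -0.80 ± 0.30 (adjusted p = 0.0401). Acaca, which makes malonyl-CoA, rose in muscle by 2.40 ± 0.50 (adjusted p = 0.0031) with -0.13 ± 0.11 in liver (adjusted p = 0.35). With the adipocyte covariate in muscle, 3 genes of the list fell in liver and rose in muscle and the list's muscle median was 0.27. There were 4 such genes with the erythrocyte covariate and 0 by edgeR with the adipocyte covariate in both tissues.

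The list of cholesterol synthesis and uptake fell mainly in liver. Of 22 genes tested, 15 fell and 2 rose there, while 4 rose and 4 fell in muscle. In all 16 passed the difference (72.7%, against 42.3% of all genes tested), 14 with liver below muscle. The medians were -0.98 in liver and -0.04 in muscle. Hmgcs1 (chromosome 13, 120151915 to 120169796), which makes the precursor of mevalonate, was picked among the genes called in liver alone. AL liver held 305 to 701 CPM with a median of 547, and IF liver 51.3 to 82.8 with a median of 70, with no overlap. Muscle held 14 to 23.9 CPM (median 19.2) in AL and 19.5 to 25.4 (median 22) in IF mice, and the ranges overlapped. The liver change was -2.96 ± 0.17 (adjusted p = 5.19e-12), the muscle value 0.20 ± 0.09 (adjusted p = 0.101), and the log2 difference -3.15 ± 0.18 (adjusted p = 5.55e-11).

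In this list Fdft1, Hsd17b7 and Lss fell in liver and rose in muscle, and with the adipocyte covariate in both tissues 1 gene did. Sqle and Dhcr7 fell in both tissues, and more in liver, with log2 differences of -1.53 ± 0.30 (adjusted p = 0.000343) and -2.12 ± 0.22 (adjusted p = 2.49e-07).

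Many PPAR-alpha targets and genes of fatty acid oxidation, taken as 1 list, rose in both tissues. Among 31 genes tested, 20 rose and 2 fell in liver, and 17 rose and none fell in muscle by edgeR, where 1531 of all genes tested fell. The medians were 1.03 and 0.32. The difference passed in 18 (58.1%, against 42.3% of all genes tested), with liver above muscle in 12. Acot1, a thioesterase, rose by 4.16 ± 0.36 in liver and less in muscle, a log2 difference of 2.87 ± 0.44 (adjusted p = 7.79e-05). It is close in sequence to Acot2, so its share of their reads is uncertain. Pdk4, which shuts pyruvate out of oxidation, rose from a median of 8.75 to 32.4 CPM in liver and from 213 to 1317 in muscle, and its log2 difference was -0.83 ± 0.24 (adjusted p = 0.00783). Cd36, a fatty acid transporter, was the 1 member with opposite signs, at -0.50 ± 0.16 in liver and 0.61 ± 0.13 in muscle. No member fell in liver and rose in muscle by edgeR with the erythrocyte covariate or the adipocyte covariate in both tissues.

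The clock genes moved in both tissues, with a larger shift in liver. Of 19 genes, 13 rose and 4 fell in liver, and 9 rose and 7 fell in muscle. The difference passed in 14 (73.7%, against 42.3% of all genes tested), with liver above muscle in 10. Per1, a repressor of the clock, rose from a median of 6.1 to 131 CPM in liver and from 15.7 to 66.9 in muscle, apart in both, with a log2 difference of 2.46 ± 0.24 (adjusted p = 1.67e-07). Opposite signs were seen in 3 repressors, Cry1, Bhlhe40 and Bhlhe41, and in 1 clock gene with the adipocyte covariate in both tissues. Cry1 went from 3.07 to 13.4 CPM (median 8.54) to 13.3 to 21.1 (median 15.4) in liver, and from 12.8 to 16.9 (median 14.2) to 9.52 to 12.4 (median 11) in muscle. Its groups touched in liver and were apart in muscle, and the log2 difference was 1.44 ± 0.23 (adjusted p = 3.59e-05). Bhlhe40 had a log2 difference of 2.06 ± 0.23 (adjusted p = 9.26e-07).

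Outputs and activators of the clock differed in size. Ciart rose in liver from a median of 1.5 to 22.7 CPM with 2.28 and 2.15 in muscle, and its log2 difference was 3.98 ± 0.64 (adjusted p = 0.000127). Dbp rose in liver from a median of 5.7 to 25.3 CPM with 36.9 and 37.8 in muscle. Npas2, a partner of BMAL1, had medians of 8.12 and 0 CPM in AL and IF liver and 1.32 and 0.27 in AL and IF muscle, and its groups were apart in both. Arntl fell in both tissues, with a log2 difference of -0.92 ± 0.17 (adjusted p = 0.000194), and Nr1d1 had a log2 difference of 0.51 ± 0.26 (adjusted p = 0.123). Mice were sampled over several morning hours, and the hour of each mouse is not given, so a shift in phase and a change in level cannot be told apart.

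Usp2 had the smallest adjusted p of the named genes. It encodes a ubiquitin protease whose level follows the clock, and it rose in liver from 1.52 to 4.68 CPM (median 2.86) to 65.5 to 106 (median 85.4). In muscle it rose from 91 to 122 CPM (median 112) to 149.7 to 206 (median 185), and the groups were apart in both tissues. The log2 fold changes were 4.96 ± 0.18 in liver (adjusted p = 4.25e-15) and 0.72 ± 0.08 in muscle (adjusted p = 1.46e-06), a difference of 4.26 ± 0.20 (adjusted p = 2.87e-12). Its locus overlaps 2 other annotated genes.

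A pair of further genes rose in both tissues and more in liver. Mt1, which binds zinc and copper, ran from 5.19 to 12.7 CPM (median 7.44) in AL liver and from 25.5 to 365 (median 145) in IF liver, apart, and from 9.78 to 25.4 (median 15.9) to 17.7 to 41 (median 27.1) in muscle, overlapping. Lpin1, a phosphatidate phosphatase of glyceride synthesis that also acts in the nucleus, had medians of 15.9 and 129.5 CPM in liver and 206 and 239.8 in muscle. The log2 differences were 2.84 ± 0.50 for Mt1 (adjusted p = 0.000325) and 2.72 ± 0.45 for Lpin1 (adjusted p = 0.000163). The muscle rise was no longer called for Mt1 with the adipocyte covariate (adjusted p = 0.0845), and for Lpin1 without IF mouse 16 (adjusted p = 0.0527).

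In another 3 genes the rise was larger in muscle. Arrdc2, a second alpha-arrestin, rose in muscle from 7.33 to 21.1 CPM (median 10.9) to 41.2 to 224 (median 179), apart, and in liver from a median of 42.8 to 78.2 with overlap. Pck1, the enzyme that commits carbon to new glucose, rose in liver from 214 to 765 CPM (median 572) to 1104 to 1921 (median 1391) and in muscle from 1.02 to 19 (median 3.04) to 17.9 to 328 (median 70.3). Cyp2e1, which oxidises ethanol and acetone, rose in liver from a median of 2925 to 8581 CPM and in muscle from 4.75 to 83.8, apart in both. Their log2 differences were -2.93 ± 0.25 (adjusted p = 3.3e-08), -2.93 ± 0.69 (0.00314) and -2.56 ± 0.62 (0.00348). With the adipocyte covariate in muscle the difference of Cyp2e1 was -0.87 (adjusted p = 0.0518) and that of Pck1 -1.17 (adjusted p = 0.0369).

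Apart from Hmgcs1, the named genes called in liver alone were Klhl31, Gadd45b and Tnnc1. Klhl31 (chromosome 9, 77543782 to 77567409), a kelch protein known from muscle, held 6.2 to 28.8 CPM (median 15) in AL liver and 0.0505 to 1.42 (median 0.281) in IF liver. In muscle it held 489 to 602 (median 525) in AL mice and 439.8 to 583 (median 508) in IF mice. The liver groups were apart and the muscle groups overlapped widely. The liver change of -5.22 ± 0.52 (adjusted p = 5.44e-07) stood beside -0.06 ± 0.06 in muscle (adjusted p = 0.51), with a log2 difference of -5.18 ± 0.50 (adjusted p = 7.54e-07). Gadd45b, a stress-response gene, rose in liver from 0.986 to 4.19 CPM (median 2.49) to 13 to 51.5 (median 24.7), with medians of 31.7 and 42.1 in muscle and a log2 difference of 3.12 ± 0.45 (adjusted p = 4.65e-05).

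Tnnc1, the troponin C of slow and cardiac fibres, rose in liver from 0.686 to 2.87 CPM (median 2.32) to 7.78 to 17.5 (median 9.83). Its muscle libraries spread from 2.09 to 268 CPM in AL mice and from 5.59 to 120.1 in IF mice, so its log2 difference of 2.91 had a standard error of 0.87 (adjusted p = 0.0141). It overlaps 1 other annotated gene. How much slow muscle each sample held was not measured apart from such genes.

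The genes called in muscle alone were H2-Q10, Ddit4, Depp1 and Slc25a1. Ddit4 (chromosome 10, 59785491 to 59787656), which restrains the growth kinase mTORC1, held 4.71 to 7.21 CPM (median 5.84) in AL muscle and 13.2 to 79.8 (median 42.5) in IF muscle. Its liver libraries held 2.9 to 8.85 (median 5.63) and 1.12 to 7.14 (median 4.82). The muscle groups were apart and the liver groups overlapped. Muscle changed by 2.88 ± 0.31 (adjusted p = 1.41e-05), the liver value was -0.27 ± 0.30 (adjusted p = 0.48), and the log2 difference was -3.09 ± 0.26 (adjusted p = 2.09e-08). Depp1, known as a FoxO-induced gene, rose in muscle from 3.51 to 6.5 CPM (median 4.51) to 18.6 to 64.4 (median 43.5), apart, with liver medians of 117 and 98.3 and a log2 difference of -2.94 ± 0.61 (adjusted p = 0.00131). With the adipocyte covariate in both tissues the difference of Depp1 was -3.04, against -2.94 without it, and did not pass (adjusted p = 0.0908).

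Slc25a1, the mitochondrial citrate carrier that feeds fat synthesis, had medians of 8.78 and 50.3 CPM in AL and IF muscle and 239 and 214 in AL and IF liver, and its log2 difference was -2.57 ± 0.56 (adjusted p = 0.00175). With the adipocyte covariate its muscle change was no longer called (adjusted p = 0.114). H2-Q10, a secreted class I molecule made mainly in liver, had medians of 0.902 and 15.2 CPM in muscle and 2744 and 2293 in liver, with a log2 difference of -4.28 ± 0.86 (adjusted p = 0.00101). With the adipocyte covariate in both tissues its difference was -1.82 and did not pass (adjusted p = 0.157). It has close relatives in the same gene family, so its count is uncertain.

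Genes that glucocorticoids are known to induce did not share 1 pattern. Of 17 tested, 10 rose and 1 fell in liver, and 12 rose and none fell in muscle by edgeR. The difference passed in 9 (52.9%, against 42.3% of all genes tested). Fkbp5, a co-chaperone of the glucocorticoid receptor, rose in liver by 2.46 ± 0.32 and had -0.12 ± 0.25 in muscle (adjusted p = 0.768), with a log2 difference of 2.48 ± 0.26 (adjusted p = 4.66e-07). Klf15, a regulator of amino acid breakdown, had -0.10 ± 0.13 in liver (adjusted p = 0.558) and rose by 0.77 ± 0.09 in muscle, with a log2 difference of -0.90 ± 0.16 (adjusted p = 0.00012). Gadd45a fell in liver from 5.59 to 13 CPM (median 9.26) to 1.68 to 5.79 (median 3.76) and rose in muscle from 9.74 to 16.1 (median 12.2) to 20.8 to 40 (median 27.9). The muscle groups of Gadd45a were apart and the liver groups just touched. It was the 1 gene of its list with opposite signs, and with the erythrocyte covariate there were 0 by edgeR. Cebpd, an early regulator of fat cell genes, rose in both tissues by 1.63 ± 0.16 and 2.05 ± 0.29, and its log2 difference of -0.36 ± 0.20 did not pass (adjusted p = 0.151).

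Of 20 genes for chaperones and folding enzymes of the endoplasmic reticulum 15 fell and 2 rose in liver, while 4 fell and 3 rose in muscle. The difference passed in 17 (85%, against 42.3% of all genes tested), with liver below muscle in 15. The medians were -0.77 and -0.08. Hspa5, the main chaperone of this compartment, went from a median of 421 to 229.5 CPM in liver and held 133 and 125 in muscle, with a log2 difference of -0.64 ± 0.18 (adjusted p = 0.0054). Sdf2l1 fell in both, by 3.17 in liver and by 0.88 in muscle on the log2 scale. Xbp1, a transcription factor of the unfolded protein response, fell in liver by 0.74 and rose in muscle by 0.23 ± 0.06 (adjusted p = 0.00623).

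The list of heat-shock and cold-inducible genes leaned towards a fall in muscle. Of 24 tested, 9 fell and none rose in muscle by edgeR. In liver 8 rose and 3 fell, near the 46.7% called there over all genes tested. The difference passed in 14 (58.3%, against 42.3% of all genes tested), with liver above muscle in 13. Cryab, a small heat-shock protein of muscle, rose in liver by 0.72 ± 0.19 and fell by 0.49 in muscle on the log2 scale, with a log2 difference of 1.17 ± 0.23 (adjusted p = 0.000305). It was 1 of 2 genes of the list with opposite signs. With the erythrocyte covariate or the adipocyte covariate in both tissues there were 0 by edgeR, and the genes with liver above muscle went from 13 to 7 and 3. Hspa1a, the inducible member, had medians of 0.155 and 0.687 CPM in liver and 10.8 and 5.49 in muscle, and shares nearly all of its sequence with Hspa1b, so its count is uncertain. Antioxidant genes of the NRF2 list went the other way: 11 of 20 rose and 1 fell in muscle, 5 rose and 7 fell in liver, and Cat, Gclc, Gclm, Srxn1 and Txnrd1 fell in liver and rose in muscle. Cat, which breaks down hydrogen peroxide, was apart in both tissues, at -0.80 ± 0.11 in liver and 0.77 ± 0.12 in muscle, with a log2 difference of -1.58 ± 0.17 (adjusted p = 3.34e-07).

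Most ribosomal protein genes rose in liver, and few were called in muscle. Of 79 cytosolic ribosomal protein genes 62 rose and 1 fell in liver, and 1 rose and 5 fell in muscle. The difference passed with liver above muscle in 63 and with liver below in none by edgeR, where 2749 of all genes tested lay below. The 63 were 46 with the erythrocyte covariate and 35 with the adipocyte covariate in both tissues. The medians were 0.69 and -0.08. Rps3, which sits at the entry of the messenger channel, ran from 82.7 to 141 CPM (median 116) to 177 to 297 (median 233) in liver and from 346 to 509 (median 408) to 312 to 384 (median 345) in muscle. Its liver groups were apart, its muscle groups overlapped, and its log2 difference was 1.29 ± 0.14 (adjusted p = 3.39e-07). These genes have many processed copies, so single counts are uncertain.

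Genes of the mitochondrial machinery fell in muscle more often than they rose. Of 79 nuclear genes of the respiratory chain and ATP synthase, 37 rose and 9 fell in liver and 31 fell and none rose in muscle by edgeR. The medians were 0.29 and -0.20, and 11 genes rose in liver and fell in muscle, among them Atp5d, Cyc1, Ndufb8 and Uqcrc1. Atp5d, a subunit of ATP synthase, had medians of 255 and 602 CPM in liver and 702 and 611 in muscle, with a log2 difference of 1.51 ± 0.14 (adjusted p = 2.86e-08). Of 76 mitochondrial ribosomal proteins 29 rose and 14 fell in liver and 4 rose and 23 fell in muscle, with medians of 0.10 and -0.12, and 10 rose in liver and fell in muscle. Over other tools, normalisations and covariates and with 7 mice a group, these opposite-sign counts ran from 4 to 18 in the respiratory chain and from 5 to 12 in the mitochondrial ribosome, lowest with 7 mice a group. Mrpl12 went from a median of 61.8 to 177 CPM in liver and from 199.7 to 179 in muscle, with a log2 difference of 1.75 ± 0.13 (adjusted p = 1.89e-09). The muscle changes of both are small, -0.25 ± 0.08 and -0.24 ± 0.09.

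**Figure D4:**
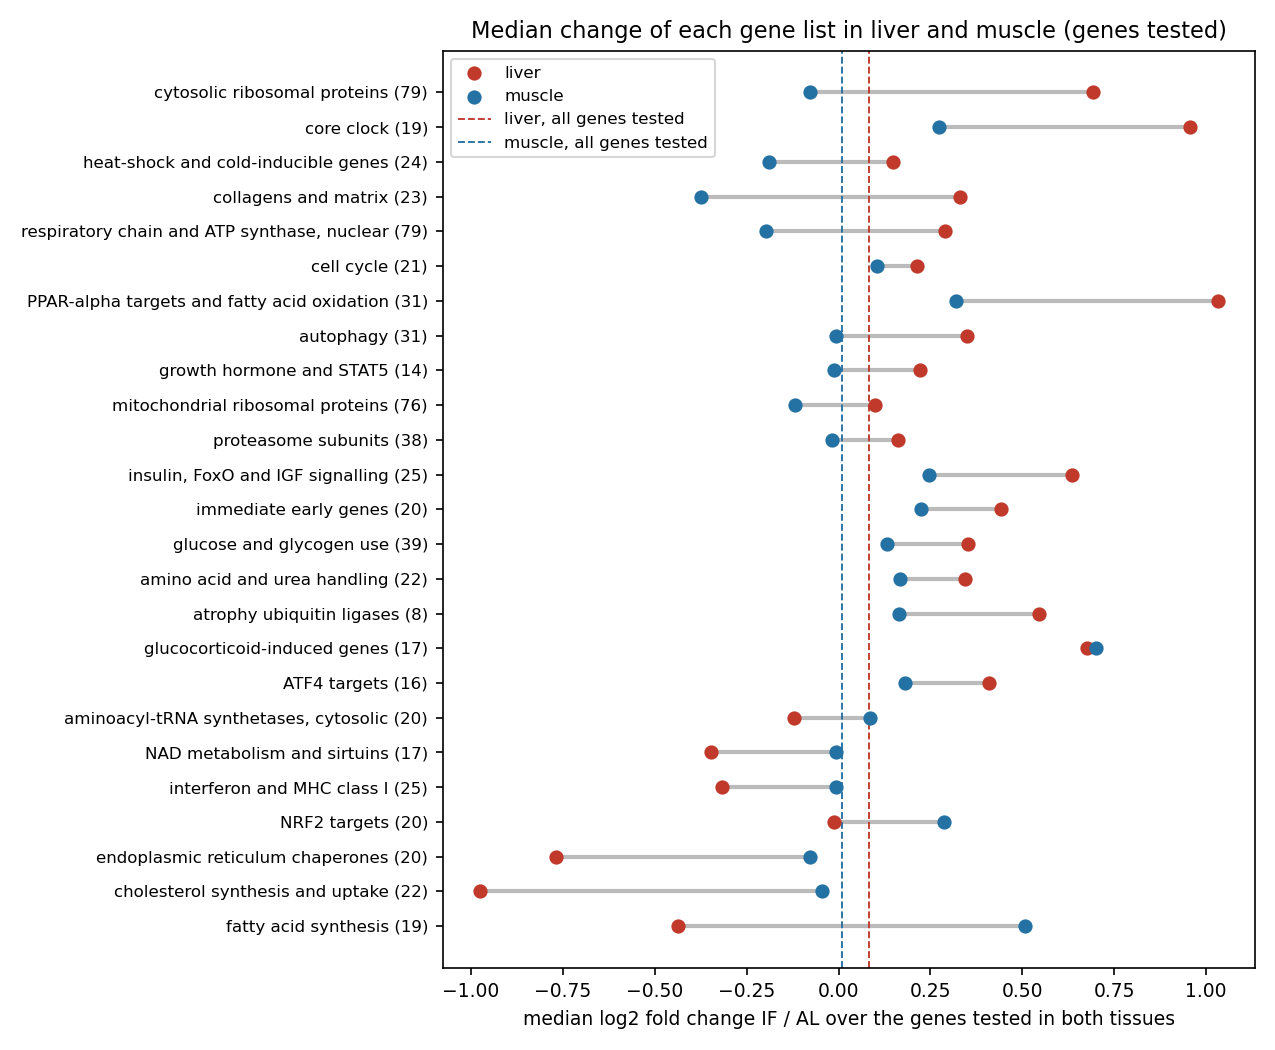
Median log2 fold change (IF / AL) in liver and in muscle over the genes tested of each of the 25 lists, with dashed lines at the medians of all genes tested, 0.08 in liver and 0.01 in muscle. Fatty acid synthesis lies at -0.44 in liver and 0.51 in muscle, and cytosolic ribosomal proteins at 0.69 and -0.08.

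Signalling by insulin and FoxO held 25 tested genes, of which 16 passed the difference (64%, against 42.3% of all genes tested), 11 with liver above muscle. Txnip, an alpha-arrestin that limits glucose uptake, rose by 1.84 ± 0.14 in liver and 0.46 ± 0.09 in muscle, and Foxo1 by 1.57 ± 0.12 and 0.87 ± 0.21. Insr, the insulin receptor, fell in liver by 0.26 and rose in muscle by 0.20 ± 0.07, a small log2 difference of -0.48 ± 0.10 (adjusted p = 0.000588). It was 1 of 2 genes of the list that did so, and there were 0 by edgeR with the erythrocyte covariate or the adipocyte covariate in both tissues. Among 31 autophagy genes 17 rose and 5 fell in liver and 5 rose and 4 fell in muscle. Over all genes tested 46.7% were called in liver and 23.4% in muscle, and the muscle count is near that share. The difference passed in 16 of the 31 (51.6%, against 42.3% of all genes tested). Map1lc3a, which coats the autophagosome, had medians of 28.6 and 78.8 CPM in liver and 351 and 284 in muscle, and its log2 difference was 1.61 ± 0.17 (adjusted p = 2.02e-07). Atg4d and Tfeb also rose in liver and fell in muscle. Of 8 ubiquitin ligases known from muscle wasting, 4 rose and none fell in muscle by edgeR, and Fbxo32 rose in both tissues, by 0.98 ± 0.22 and 1.23 ± 0.16, with a log2 difference of -0.25 ± 0.19 (adjusted p = 0.29).

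Glucose and glycogen genes split by enzyme. Of 39 tested, 18 rose and 5 fell in liver and 10 rose and 1 fell in muscle. The muscle count is near the 23.4% of all genes tested that were called there, and 46.7% were called in liver. The difference passed in 23 of the 39 (59%, against 42.3% of all genes tested). Ldha, which makes lactate, rose in liver by 1.87 ± 0.17 and had 0.17 ± 0.06 in muscle (adjusted p = 0.0629), with a log2 difference of 1.75 ± 0.18 (adjusted p = 2.41e-07). Pygl, the glycogen phosphorylase of liver, fell in liver by 0.66 and rose in muscle by 2.40 ± 0.57 (adjusted p = 0.00725). It was the 1 gene of its list with opposite signs of that kind, and with the adipocyte covariate in muscle there were 0 by edgeR. Among 22 genes of amino acid use, Bckdha and Got2 rose in liver and fell in muscle, Dbt did the reverse, and Glul, which makes glutamine, rose by 0.82 ± 0.13 in liver and by 1.60 ± 0.13 in muscle. Of 16 ATF4 targets, 6 rose and 3 fell in liver and 6 rose and 2 fell in muscle. The difference passed in 6 (37.5%, below the 42.3% of all genes tested). By edgeR 0 of the 16 had opposite signs, against 1 with DESeq2, with the erythrocyte covariate or with 7 mice a group. Asns, which makes asparagine, rose in both tissues by 1.44 ± 0.30 and 1.80 ± 0.36.

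Among 17 genes of NAD use, 9 fell and 4 rose in liver and 2 rose and 2 fell in muscle. The muscle count is near the 23.4% of all genes tested that were called there, and 46.7% were called in liver. The difference passed in 10 of the 17 (58.8%, against 42.3% of all genes tested). Nampt, which recycles nicotinamide, rose in liver by 2.06 ± 0.11 and had 0.13 ± 0.07 in muscle (adjusted p = 0.191), and Sirt3, the mitochondrial deacetylase, rose in liver by 0.30 ± 0.11 and fell in muscle by 0.64. Sirt3 was the 1 gene of its list that did so, and there were 0 by edgeR with the erythrocyte covariate or the adipocyte covariate in both tissues. Of 20 cytosolic aminoacyl-tRNA synthetases 5 passed the difference, which is 25% against 42.3% of all genes tested. Of 38 proteasome subunits 15 rose and 8 fell in liver and 2 fell and none rose in muscle by edgeR, and 18 passed the difference (47.4%, near the share of all genes tested). Of 20 immediate early genes 6 passed the difference (30%, below the share of all genes tested), and Zfp36, which destabilises messengers of cytokines, fell in liver from a median of 106 to 51.6 CPM and rose in muscle from 9.5 to 26, with a log2 difference of -2.34 ± 0.28 (adjusted p = 2.51e-06).

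Of 23 matrix genes tested, 14 fell and 2 rose in muscle, where 23.4% of all genes tested were called. In liver 6 rose and 5 fell, near the 46.7% called there over all genes tested. The difference passed in 10 of the 23 (43.5%, near the 42.3% of all genes tested). Col6a1 and Bgn rose in liver and fell in muscle, and Lox, which cross-links collagen, fell in liver by 2.04 and rose in muscle by 0.56 ± 0.18 (adjusted p = 0.0285). Lox was the 1 gene of the list that did so, and there were 0 by edgeR with the adipocyte covariate in muscle, with the erythrocyte covariate or with 7 mice a group. Of 21 cell cycle genes 6 passed the difference (28.6%, against 42.3% of all genes tested). Cdkn1b, an inhibitor of the cell cycle, fell in liver from a median of 18.1 to 11.2 CPM and rose in muscle from 23.1 to 29, and Ccnd1 rose in liver by 1.54 ± 0.25 with -0.45 ± 0.25 in muscle (adjusted p = 0.203). Of 25 interferon and class I genes 9 fell and 1 rose in liver and 2 fell in muscle, and 12 passed the difference (48%, near the share of all genes tested). B2m, the light chain of class I molecules, fell in liver by 1.23 and had 0.09 ± 0.18 in muscle (adjusted p = 0.758). Of 14 growth hormone and STAT5 genes 6 passed the difference (42.9%, near the 42.3% of all genes tested). Socs3, a feedback inhibitor, fell in muscle by 1.21 and had 0.28 ± 0.25 in liver (adjusted p = 0.388).

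In female mice the difference between the tissues passed in 0 of 13358 genes by edgeR's quasi-likelihood test (0%), with 606 at an unadjusted p under 0.05, and DESeq2 called 5. The smallest adjusted p was 0.178. Of the 30 named genes, 29 could be tested, 13 had the sign of the males, and their differences were at most 1.01 in size on the log2 scale, against 1.38 to 7.68 in the males. Of the 721 opposite-sign genes tested in females, 365 had the sign of the male difference (50.6%), against 52.8% of the 7363 genes that were not called in males. Of the 5558 genes called in males and tested in females, 3113 had it (56%).

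The difference between the sexes was tested directly. It passed in 3182 of 12921 genes (24.6%), in 603 of the 721 opposite-sign genes, and in 28 of the 29 named genes. By class, 312 of 412 genes that rose in male liver and 291 of 309 that fell in it passed. Tnnc1 was the named gene that did not (2.27 ± 1.48, adjusted p = 0.276), and Cfd had too few counts in female liver for a test. For Fasn the male difference lay below the female one by -5.63 ± 1.05 (adjusted p = 0.000253), and for Pkdcc above it by 1.59 ± 0.18 (adjusted p = 1.75e-07). Since the genes were chosen in males, a smaller value in females is in part a result of that choice.

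Female levels are given for a few genes. Pkdcc had medians of 31.3 and 30.9 CPM in AL and IF liver and 110.4 and 110.7 in AL and IF muscle. Fasn had 846 and 928.5 in liver and 59 and 47.6 in muscle. Usp2 held a median of 57.6 CPM in AL liver of females against 2.86 in males, and Mt1 449.5 against 7.44, so that the IF level of males, 85.4 and 145, compares with 74.9 and 691 in IF females. The female AL and IF ranges overlapped in both tissues for each of these 4 genes. Sex and the hour of sampling, which is not given for females, cannot be told apart.

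The cortex of the same males showed few of these changes. Of 26 named genes counted well enough there, 4 rose in IF cortex: Arrdc2 by 1.15 on the log2 scale (adjusted p = 0.0172), Depp1 by 1.03 (adjusted p = 0.0158), Ddit4 by 0.64 (adjusted p = 0.0148) and Arrdc3 by 0.35 (adjusted p = 0.0172), against 1.6% of all genes tested in cortex. All 4 rose in IF muscle as well. The cortex library labelled AL mouse 1 carries female-typical counts, and without it 5 named genes passed, against 7.29% of all genes, with values of 1.27, 1.01, 0.68 and 0.37 in the same order and 0.24 for Usp2.

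Promoter sequence was read for a few motifs, on both strands, over 250 bases before and 50 after the start of each gene, from RefSeq on GRCm38.p6. The FoxO motif TGTTTAC was found in 13 of 242 promoters of the genes that fell in liver and rose in muscle (5.37%), in 6 of 329 of the genes that did the reverse (1.82%), and in 2.43% of the promoters of genes tested and 3.55% of all promoters. The E-box CACGTG was found in 41 of these 329 promoters (12.5%) and 24 of the 242 (9.92%), against 10.4% of the promoters of genes tested and 7.24% of all. The CRE TGACGTCA was found in 4.55% of the 242, 3.04% of the 329 and 3.31% of genes tested. For the D-box TTANGTAA these shares were 1.65, 1.52 and 1.34%, and for the sterol regulatory element 1.24, 0.304 and 1.06%. They were 0.413, 0.304 and 0.314% for the glucocorticoid response element and 0, 0 and 0.395% for the heat shock element. No difference between classes was tested for any motif. A match is a description of letters and was not tested as a binding site.

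Of the 30 named genes 25 had a promoter in the table. A match to a motif was found in 5 of them: Hmgcs1 and Klhl31 hold the sterol regulatory element, Mt1 the glucocorticoid response element, and Gadd45b and Slc25a1 the E-box. A pair is shown as examples: Hmgcs1 the sterol regulatory element TCACNCCAC, found in 1.22% of all promoters, and Mt1 the glucocorticoid response element, found in 0.463%. Capitals mark the match, and the runs are chr13:119690101-119690400 and chr8:94178839-94179138, both on the plus strand.
Hmgcs1: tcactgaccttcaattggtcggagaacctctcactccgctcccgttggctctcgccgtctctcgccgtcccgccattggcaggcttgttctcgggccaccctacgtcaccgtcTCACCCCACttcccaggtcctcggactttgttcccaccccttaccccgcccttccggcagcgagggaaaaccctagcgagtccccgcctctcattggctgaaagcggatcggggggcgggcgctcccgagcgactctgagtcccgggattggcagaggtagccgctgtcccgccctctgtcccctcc
Mt1: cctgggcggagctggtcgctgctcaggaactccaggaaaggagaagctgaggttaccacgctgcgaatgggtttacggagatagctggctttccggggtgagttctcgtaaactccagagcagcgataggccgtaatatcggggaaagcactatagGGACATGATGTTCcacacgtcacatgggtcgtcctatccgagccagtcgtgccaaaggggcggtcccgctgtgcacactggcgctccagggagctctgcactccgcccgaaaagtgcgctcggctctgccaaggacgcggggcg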

How the data were processed

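The counts were deposited by the authors as 1 table of reads per gene for 96 libraries, made from reads aligned with HISAT2 to mm39; the counting program's strand setting is not given, and no count was altered before use. Members and lists were chosen with earlier results of these data known. A gene was tested where edgeR's filterByExpr (minimum count 10, minimum total 15) kept it in liver alone and in muscle alone. Libraries were normalised by TMM within each tissue. edgeR's quasi-likelihood test with robust estimation was used, with the mouse as a block for the interaction, and p values were adjusted by the Benjamini-Hochberg method over all genes tested.

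The named genes are protein-coding, with a mean of at least 5 CPM in each tissue and an adjusted p of the difference under 0.05. They are the 8 of each opposite-sign class with the largest smaller change, 3 with a larger change in liver and 3 with a larger change in muscle of the same sign, and 4 called in each tissue alone. List members are named as examples. Some genes that the rule or the lists hold are counted but not reported here by name. The lists are of 25 pathways and 12 marker sets.

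Mouse numbers come from the labels. Liver and muscle of a mouse were compared after taking out the group mean: Pearson r ran from -0.0365 to 0.104 with a median of 0.0291 over 16 mice, and for 5 of 16 the own muscle gave the highest r, so the pairing rests on the labels. Versions were R 4.3.3, edgeR 4.0.16, DESeq2 1.42.0 and limma 3.58.1.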

Additional observations from a re-analysis of the deposited data

Results flagged for a closer look

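The values below passed a rule that marks results for a second look. The first rule compares the library furthest from the other 7 of its group with the spread of the group, on a log2 scale (Dixon's ratio). Of 120 groups of named-gene values, 8 passed, and about 1 in 20 would by chance. In muscle they included Tnnc1 in AL mouse 8 at 2.092 CPM and in IF mouse 9 at 5.594, and Adrb3 and Thrsp in AL mouse 2 at 6.85 and 50.56. In liver they were Ddit4 and Slc25a1 in IF mouse 10 at 1.123 and 367.1 CPM. No library was left out for this.

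The second rule marks a tested difference between groups. It holds for the 5639 genes whose change differed between the tissues, the 734 of opposite sign and the 3182 whose difference differed between the sexes. For the named genes the log2 differences were Pkdcc 1.7, Pcp4l1 2.17, Slc25a47 2.85, Cdc42ep2 1.66, Adgrl1 1.38, Cfd -7.68, Fasn -5.05, Adrb3 -4.82, Arrdc3 -3.62, Acly -2.64, Hacd2 -2.55, Thrsp -2.91 and Cd1d1 -3.7 among those of opposite sign. Among those that moved in the same direction or in 1 tissue they were Usp2 4.26, Mt1 2.84, Lpin1 2.72, Arrdc2 -2.93, Pck1 -2.93, Cyp2e1 -2.56, Klhl31 -5.18, Hmgcs1 -3.15, Gadd45b 3.12, Tnnc1 2.91, H2-Q10 -4.28, Ddit4 -3.09, Depp1 -2.94 and Slc25a1 -2.57.

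The male value minus the female value of the same difference passed for 28 named genes, most of which follow. The genes were chosen for a large male difference and this test uses the same male values, so that count is in part a result of the choice. Where the male liver rose and the male muscle fell it was Pkdcc 1.59, Pcp4l1 1.95, Slc25a47 2.27, Cdc42ep2 1.67 and Adgrl1 1.55. Where liver fell and muscle rose it was Fasn -5.63, Adrb3 -5.21, Arrdc3 -3.3, Acly -3.13, Hacd2 -2.86, Thrsp -3.93 and Cd1d1 -3.62. For the remaining genes it was Usp2 3.95, Mt1 2.62, Lpin1 1.69, Arrdc2 -1.94, Pck1 -3.8, Cyp2e1 -2.79, Klhl31 -4.41, Hmgcs1 -3.25, Gadd45b 2.84, H2-Q10 -4.93, Ddit4 -2.91, Depp1 -3.07 and Slc25a1 -3.03.

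The third rule marks values outside the comparison of liver and muscle. The cortex library labelled male AL mouse 1 holds 10219 counts of Xist, which is read from the inactive X chromosome of females, and 0 of the Y-linked gene Ddx3y, while the other 47 male libraries hold at most 25 of Xist. The cortex results are given with and without this library. The liver and muscle libraries of that mouse number match their label.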

How the results depend on the processing

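With no replicate block the difference passed in 5910 genes and 734 had opposite signs, and with a replicate block on the label number, which pairs AL and IF mice that share nothing known, 5859 and 662. The replicate block gave 7090 genes for diet in liver and 3141 in muscle, the sex difference with no replicate block 3405 genes, and neither ended the difference of a named gene, though the block ended single-tissue calls named below. An erythrocyte-marker covariate gave 3314 genes and 457 of opposite sign. An adipocyte-marker covariate in both tissues, added after seeing the data, gave 2319 and 522, and its liver score rests in part on Cfd. Unadjusted p under 0.05 gave 1336 genes of opposite sign and 5309 for diet in muscle, and a change of at least 2-fold gave 2108 and 18. In females, no replicate block gave 3 genes, DESeq2 gave 5 and unadjusted p 606, against 0. Cortex without the library of AL mouse 1 gave 1336 genes against 294. Other tools and normalisations gave 5631 to 5994 genes and 744 to 851 of opposite sign, and leaving out 1 mouse gave 5220 to 5574 and 565 to 784. Of the differences between the tissues of single named genes 823 kept their call, 15 lost it and 0 turned in sign. All losses of that difference came with a covariate: 3 with erythrocyte markers (Pck1, Tnnc1 and Slc25a1), 10 with adipocyte markers in both tissues (Adrb3, Acly, Hacd2, Thrsp, Pck1, Cyp2e1, Tnnc1, H2-Q10, Depp1 and Slc25a1) and 2 with adipocyte markers in muscle alone (Cyp2e1 and Tnnc1). The opposite signs were lost without a covariate for Adgrl1 (without IF mouse 9 or 13, and with no filter beyond 1 count), Acly (limma, the replicate block and 7 mice) and Arrdc3 (the replicate block). Hmgcs1 and H2-Q10 gained opposite signs with 7 mice, with adjusted p of 0.0351 in muscle for Hmgcs1 and 0.0329 in liver for H2-Q10. Hmgcs1 also left its class without AL mouse 2 alone, and H2-Q10 without IF mouse 10 alone. A filter of at least 10 counts in every library gave 5275 genes, none beyond 1 count 5002, and 7 mice a group (without AL mouse 2 and IF mouse 10) 5372.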
